A study of Mus musculus with 20 samples.

Results

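Of the 10833 probe sets on the array that carry a single gene symbol, 92 report transcripts of heterotrimeric G proteins and of the cyclic AMP pathway, and they stand for 64 genes. They were taken by symbol alone, as the probe sets named Rgs followed by a digit (Rgs5 left out), Gna, Gnb or Gng, Adcy, Pde followed by a digit, Prkar or Prkac. The rule uses no expression value, but the set was proposed with earlier results of these data known. The 92 probe sets cover 18 of RGS proteins, 26 of alpha, 7 of beta and 8 of gamma subunits, 8 of adenylyl cyclases, 12 of phosphodiesterases and 6 of protein kinase A subunits. The prefixes also take in Adcyap1 and its receptor Adcyap1r1, the phosphodiesterase-binding protein Pde4dip, the prenyl-binding chaperone Pde6d and the antisense transcript Gnasas1. A level filter left 70 of the 92 probe sets for testing, from 54 of the 64 genes, and these 70 are not all members. The 10 genes with no probe set tested were Gna14, Gnat1, Gng4, Gnasas1, Rgs4, Rgs6, Rgs9, Rgs11, Adcy8 and Pde1c, and Rgs1 was not analysed here.

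The samples were total RNA of cells sorted from adult C57BL/10SnJ mice, with no further genotype and no treatment named. Each of 4 groups had 5 arrays: the side population (SP) and the main population (MP) of skeletal muscle, and the SP and MP of bone marrow. SP cells are the small fraction that pumps out a DNA-binding dye, and MP cells retain it, so each group is a mixture of cell types. Whether each group's 5 samples were drawn from different animals or sorts is not stated in the labels. The p-values therefore measure the spread between these samples alone, and that spread may be technical.

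Hormones, chemokines and neurotransmitters act on receptors that load GTP onto the alpha subunit of a trimeric G protein and free it from the beta and gamma subunits. The stimulatory alpha subunit switches on adenylyl cyclases, which make cyclic AMP, the inhibitory alpha subunits restrain them, and other alpha subunits act on phospholipase C. Cyclic AMP releases the catalytic subunits of protein kinase A from the regulatory ones, phosphodiesterases destroy it, and RGS proteins shorten the signal by speeding GTP hydrolysis on the alpha subunit. In bone marrow, receptors of this kind govern the homing of blood cells, and in muscle the calcitonin receptor on resting satellite cells acts through cyclic AMP.

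Signals are given as log2 of the quantile-normalized intensity, with a floor at 6.71 (a signal of 104.8), below which values have no order. A probe set is called changed where the limma fit over the 20 arrays gave a Benjamini-Hochberg adjusted p under 0.05, taken over all 10310 probe sets tested. Changes carry their standard error (SE) and group levels their SD over 5 arrays. Each gene is described by its brightest tested probe set, and levels of different probe sets are not set against each other. Array medians ran from 319 to 613 before normalization, and precision is limited by the number of arrays. The groups carried the markers of their labelled tissues. The 11 endothelial markers on the array summed to 104773 to 196933 signal on muscle arrays and 4048 to 14482 on marrow arrays, and the 12 granulocyte markers to 1899 to 48503 and 110725 to 420388. On every muscle array the T cell genes Cd3e and Cd3g lay at the floor, as did, on every marrow array, the satellite cell genes Myf5, Calcr and Fgfr4. Other genes of both lists did not. Of the T and NK cell list, Cd3d averaged 7.39 in muscle SP, with 2 arrays at the floor. Cd28, Zap70 and Ccl5 averaged 9.09, 9.46 and 13.16 there, with no array at the floor. Vcam1, of the satellite cell list, averaged 10.53 in marrow SP and 11.96 in marrow MP. In these mixed samples fewer cells of a type and less RNA per cell cannot be told apart. In both tissues the SP arrays had the higher GAPDH 3' to 5' signal ratio, a value of RNA integrity, by 1.17 on the log2 scale in muscle and 1.05 in marrow.

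Regulatory sequence is shown for 4 genes: Adcy2 and Rgs16 had the largest fall and rise of the brightest probe sets called between the muscle populations, Rgs2 rose with Rgs16, and Prkar1a, whose level was not called in any comparison of the fit reported, is shown as the member with a full cyclic AMP response element. Each is the 250 bases before the RefSeq gene start in GRCm38.p6, 5' to 3' on the strand of the gene, and capitals mark the element TGACGTCA or its core TGACG on either strand (CGTCA on the other). The Adcy2 stretch lies on the minus strand at chr13:68999542-68999791, Rgs16 on the plus strand at chr1:153740103-153740352, Rgs2 on the minus strand at chr1:144004150-144004399 and Prkar1a on the plus strand at chr11:109650699-109650948.
Adcy2: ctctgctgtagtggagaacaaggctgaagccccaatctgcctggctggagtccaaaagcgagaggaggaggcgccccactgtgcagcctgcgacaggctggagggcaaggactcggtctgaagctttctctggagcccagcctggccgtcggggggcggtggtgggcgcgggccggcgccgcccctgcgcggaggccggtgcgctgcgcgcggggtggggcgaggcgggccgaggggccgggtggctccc
Rgs16: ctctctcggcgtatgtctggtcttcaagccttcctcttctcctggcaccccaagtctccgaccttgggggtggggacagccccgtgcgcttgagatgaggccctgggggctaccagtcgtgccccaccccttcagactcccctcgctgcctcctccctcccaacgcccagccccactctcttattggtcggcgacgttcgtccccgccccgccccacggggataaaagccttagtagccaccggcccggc
Rgs2: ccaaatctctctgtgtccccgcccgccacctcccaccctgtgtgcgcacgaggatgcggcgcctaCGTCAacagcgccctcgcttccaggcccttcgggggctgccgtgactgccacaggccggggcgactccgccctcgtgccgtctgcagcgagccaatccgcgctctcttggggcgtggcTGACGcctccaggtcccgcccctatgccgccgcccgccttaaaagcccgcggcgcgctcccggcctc
Prkar1a: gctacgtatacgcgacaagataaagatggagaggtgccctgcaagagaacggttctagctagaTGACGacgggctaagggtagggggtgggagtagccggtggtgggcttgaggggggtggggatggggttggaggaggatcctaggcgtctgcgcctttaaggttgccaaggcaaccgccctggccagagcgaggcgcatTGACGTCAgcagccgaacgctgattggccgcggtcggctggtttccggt
The Adcy2 and Rgs16 stretches hold neither word, Rgs2 holds the core at 2 places, and Prkar1a holds 1 full element and 1 further core. Of the 64 genes, 49 were matched in the RefSeq promoter table, with 86 promoters among them. The full element occurs in 1 of these 86 and in 1.55% of all 32851 promoters of the table, and the core, which the full element contains, in 21 of the 86, from 16 genes, and in 17.8% of all. These matches describe letters and name no binding site.

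**Figure D1:**
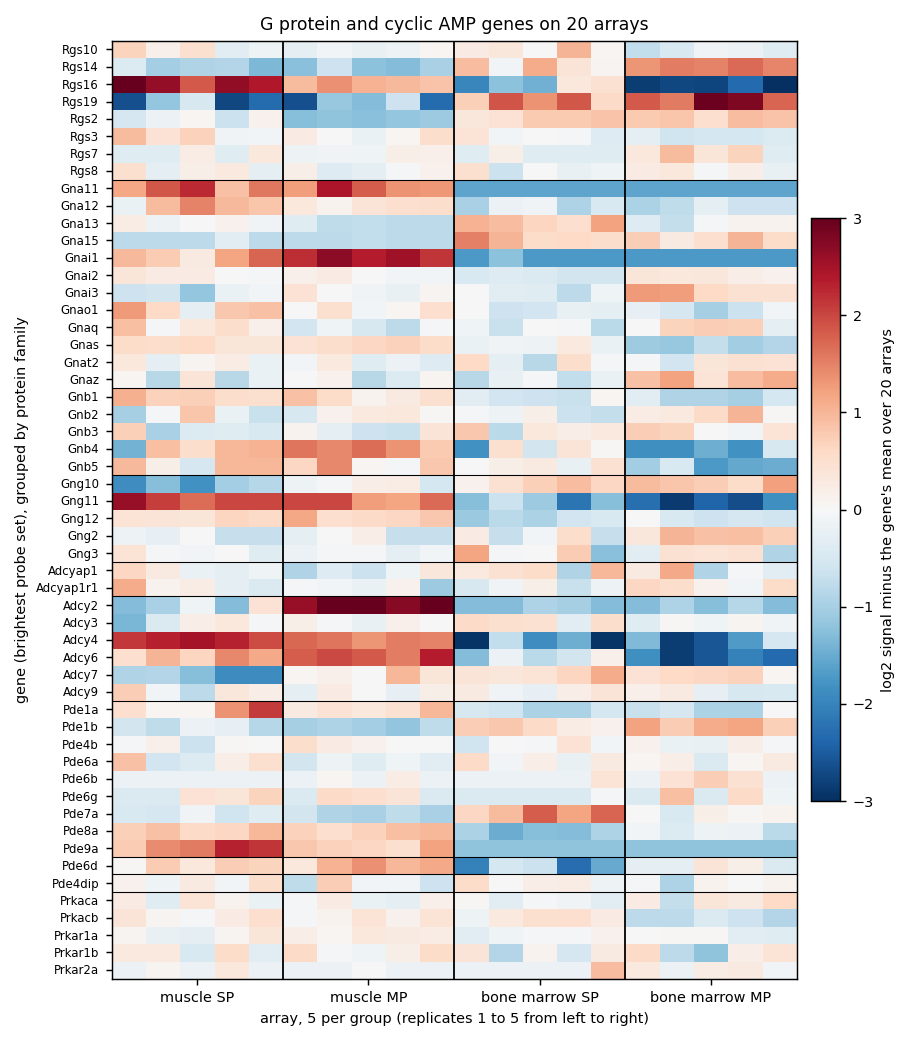
Log2 signal of the brightest probe set of 54 genes on 20 arrays, drawn as the difference from the gene's own mean, with the colour scale ending at 3 either way; black lines part the 4 groups of 5 arrays and the protein families. Adcy2 is bright on the 5 muscle MP arrays, Rgs16, Gna11, Gng11 and Adcy4 on the muscle arrays, and Rgs14 and Rgs19 on the marrow arrays.

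By group mean, 11 of the 54 genes were highest in muscle SP, 13 in muscle MP, 12 in bone marrow SP and 18 in bone marrow MP. These are 20.4%, 24.1%, 22.2% and 33.3% of the genes, beside 18.8%, 18.7%, 29.4% and 33.1% of all probe sets tested. Adcy4, Rgs16 and Pde9a were among those highest in muscle SP. Adcy2, Adcy6, Gnai1 and Gnas were highest in muscle MP. Adcy7, Gna13, Pde7a and Prkacb peaked in marrow SP, and Rgs2, Rgs14, Rgs19, Gnai2 and Gnai3 in marrow MP. These orders are descriptions, and the comparisons below say which neighbours differed beyond their spread.

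The first question was how the dye-effluxing cells of muscle differ from the bulk of muscle cells. In muscle SP cells 3 adenylyl cyclases were lower, led by a 12.1-fold difference in Adcy2, together with the inhibitory alpha subunit Gnai1 and the gamma subunit Gng10. The RGS genes Rgs16 and Rgs2, the alpha subunits Gna13 and Gnaq and the cyclic GMP phosphodiesterase Pde9a were higher. Of the 70 member probe sets, 7 were called higher and 5 lower, 17.1% in all, beside 11.7% of all probe sets tested (5.1% higher and 6.64% lower). The median log2 change of the members was 0.10, and that of all probe sets 0.03.

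Adcy2 encodes a cyclase that G beta-gamma can stimulate. Its log2 signals in muscle MP were 10.61, 11.12, 11.15, 10.73 and 11.14, and in muscle SP 6.71, 7.04, 7.87, 6.71 and 8.45, with 2 SP arrays at the floor. No SP array reached the lowest MP array, and the log2 change was -3.59 ± 0.26 (SE, adjusted p 4.4e-09). A floor at the 40th percentile brought the change to -2.86 and a pseudocount in place of the floor to -2.93, with the call kept. Adcy7, another beta-gamma-responsive cyclase known from blood cells, read 9.90, 9.91, 9.52, 8.90 and 8.90 in SP and 10.85, 10.94, 10.79, 11.80 and 11.16 in MP. The groups were again apart, with a log2 change of -1.68 ± 0.24 (SE, adjusted p 5.4e-05). Adcy6, a cyclase inhibited by Gi and by calcium, was bright in both populations and lower in SP by a smaller margin, with a log2 change of -0.95 ± 0.26 (SE, adjusted p 0.017). Adcy4 and Adcy3 were not called. For Adcy4, though, every SP array (11.60 to 12.14) lay above every MP array (10.96 to 11.38). Its means were 11.89 and 11.18. Of the 7 cyclase probe sets 3 were called lower and 0 higher, beside 6.64% and 5.1% of all probe sets.

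The inhibitory subunit Gnai1 read 9.41, 9.21, 8.71, 9.62 and 10.18 in SP and 10.66, 11.12, 10.79, 10.98 and 10.58 in MP, a log2 change of -1.40 ± 0.21 (SE, adjusted p 8.2e-05). Its relatives Gnai2 and Gnai3 did not pass, with log2 changes of 0.11 ± 0.14 (SE) and -0.56 ± 0.23 (SE). The gamma subunit Gng10 fell as well, with a log2 change of -1.30 ± 0.22 (SE, adjusted p 3.3e-04), and no SP array reached the MP range. Among the alpha subunits that rose, Gna13 had a log2 change of 0.70 ± 0.18 (SE, adjusted p 0.0138); a dimmer Gna13 probe set stood at -0.22 and was not called. Gnaq, which acts on phospholipase C beta, was dim throughout, with levels of 7.94 ± 0.37 (SD, n = 5) in SP and 7.16 ± 0.31 (SD, n = 5) in MP and a log2 change of 0.78 ± 0.24 (SE, adjusted p 0.0395). A dim probe set of Gnao1, the alpha subunit abundant in neurons, was at the floor on all MP arrays and higher in SP by at least 1.34 ± 0.39 (SE) on the log2 scale, adjusted p 0.0282, while its other 2 tested probe sets were not called. Gnas and Gnb1 did not pass, with log2 changes of -0.08 ± 0.15 (SE) and 0.23 ± 0.19 (SE).

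SP cells were higher at 3 of the 12 RGS probe sets, from 2 genes, and lower at 0. Over all probe sets these shares were 5.1% and 6.64%. Rgs16, which acts on Gi and Gq, ran from 13.18 to 14.46 with a median of 13.96 in SP and read 12.28, 12.69, 12.38, 12.30 and 12.19 in MP. Every SP array lay above every MP array, with a log2 change of 1.50 ± 0.36 (SE, adjusted p 0.00765), and the second Rgs16 probe set gave 0.91. Rgs2, which acts chiefly on Gq, read 13.16, 13.47, 13.72, 13.02 and 13.78 in SP and 12.39, 12.45, 12.41, 12.49 and 12.57 in MP, again with no overlap and with a narrow MP range; its log2 change was 0.97 ± 0.17 (SE, adjusted p 5.4e-04). Pde9a was the only phosphodiesterase called, with a log2 change of 0.88 ± 0.22 (SE, adjusted p 0.00974) and overlapping groups. None of the 6 probe sets of protein kinase A subunits was called here by limma. Prkaca, a catalytic subunit, had a log2 change of 0.07 ± 0.22 (SE), the regulatory subunit Prkar1a one of -0.20 ± 0.16 (SE), and the cyclic AMP phosphodiesterase Pde4b one of -0.29 ± 0.19 (SE).

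Several cell type lists moved with these muscle changes. The 9 satellite cell and myogenic markers of 11 on the array summed to 5709 to 20772 in SP and 16443 to 20754 in MP. These ranges of summed signal overlap, and no marker was at the floor on all arrays. Myf5, Calcr and Fgfr4 averaged 7.50, 7.04 and 6.79 in SP and 10.89, 10.63 and 10.53 in MP, and Myog and Cdh15 were also lower in SP. The rest of the list differed little: Itga7 averaged 10.41 in SP and 10.22 in MP, Des 9.86 and 9.52, Myod1 9.24 and 9.35, and Vcam1 12.99 and 13.12. The 12 monocyte and macrophage markers of 12 summed to 4789 to 15428 and 27077 to 34985, with Adgre1 at the floor on all SP arrays. The 10 fibroblast markers of 10 summed to 71824 to 121551 and 186875 to 285459, none at the floor. The 12 T and NK cell markers of 14 on the array summed to 4355 to 54311 in SP and 781 to 1763 in MP, with Cd3e and Cd3g at the floor in both. Cd3d averaged 7.39 in SP and was at the floor on all MP arrays. Endothelial markers summed to 165082 to 196933 and 104773 to 131275. The part of these lists in the muscle changes was not tested.

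Some muscle calls rested on a few arrays or on a setting. Without muscle MP 5 the Adcy6 change was -0.84 with an adjusted p of 0.0513 (0.009 to 0.11 over its alternatives). With the GAPDH ratio as a covariate 8 member probe sets were called, and the changes of Adcy6 (-0.84, adjusted p 0.11) and Rgs16 (1.18, adjusted p 0.0991, with 3.9e-04 to 0.0991 over its alternatives) were not among them. Gnaq was no longer called when any 1 of 6 arrays was left out (muscle SP 1, 3 or 4 or muscle MP 1, 3 or 4; adjusted p 0.0618 to 0.111) or under 6 other settings (0.029 to 0.608 over all its alternatives). Gna13 had an adjusted p of 0.0621 with median scaling (0.0066 to 0.0621 over its alternatives), and Pde9a 0.0814 in a fit of the muscle arrays alone (3.5e-04 to 0.0814).

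In bone marrow the same comparison moved other members. Marrow SP cells had higher Rgs16 and Adcy6, the beta subunits Gnb5 and Gnb4, the cyclic AMP phosphodiesterase Pde7a, the stimulatory alpha subunit Gnas and the catalytic kinase subunit Prkacb. Inhibitory alpha subunits (Gnaz, Gnai3, Gnai2), Rgs14 and the prenyl-binding chaperone Pde6d were lower. Of 70 probe sets, 10 were higher and 13 lower, 32.9%, beside 30.2% of all probe sets (15.4% higher and 14.8% lower), so the share of members called was near the background. That split of 43.5% higher depended on the scaling: it was 74.1% (20 of 27) on the deposited values without further normalization, where the median of all probe sets was 0.31, and 33.3% (9 of 27) with median scaling, where that median was -0.08.

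Rgs16 read 9.37, 10.10, 9.89, 11.64 and 11.79 in marrow SP and 8.48, 8.59, 8.58, 9.01 and 7.98 in marrow MP. Arrays 4 and 5 of the SP group stood well above the other SP arrays, and all 5 lay above the MP range, with a log2 change of 2.03 ± 0.36 (SE, adjusted p 1.6e-04). Those arrays are among the 3 of highest GAPDH ratio, and without the 3 the change was 1.28 with an adjusted p of 4.98e-04. The second Rgs16 probe set stood at 0.48 and was not called. Rgs10, a small RGS protein acting on Gi, rose with a log2 change of 0.70 ± 0.21 (SE, adjusted p 0.0145). The other tested Rgs10 probe set, at 0.37, was not called. Rgs14, which carries a second Gi-binding motif, read 11.48, 10.47, 11.67, 10.96 and 10.64 in SP and 11.88, 12.10, 12.06, 12.25 and 12.02 in MP and fell with a log2 change of -1.02 ± 0.22 (SE, adjusted p 0.00128). For Rgs19, an RGS protein of Gi, 1 of 3 probe sets was called lower at -0.97, while the brightest, at -0.90, and the third, at 0.17, were not. The dim Rgs7 had a log2 change of -0.64 ± 0.22 (SE, adjusted p 0.0282), and Rgs2 was not called, at -0.14 ± 0.17 (SE), though median scaling gave -0.79 with an adjusted p of 0.0146.

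Gnas read 15.14, 15.24, 15.20, 15.65 and 15.15 in marrow SP and 14.28, 14.20, 14.63, 14.30 and 14.47 in MP. The groups did not overlap and the log2 change was 0.90 ± 0.15 (SE, adjusted p 5.8e-05), from a probe set whose suffix marks possible cross-hybridisation, while the other tested Gnas probe set gave 0.19 and was not called. The inhibitory subunit Gnai3 read 13.41, 13.10, 13.05, 12.64 and 13.29 in SP and 14.70, 14.67, 14.02, 13.88 and 13.88 in MP, with all SP arrays below, and a log2 change of -1.14 ± 0.23 (SE, adjusted p 5.0e-04) (-1.83 with median scaling). Gnai2 changed by -0.74 ± 0.14 (SE, adjusted p 2.5e-04), and Gnaz, an inhibitory subunit resistant to pertussis toxin, by -1.32 ± 0.26 (SE, adjusted p 3.8e-04). The least bright Gnai2 probe set, at -0.49, was not called. Gna13 was higher with a log2 change of 1.06 ± 0.18 (SE, adjusted p 1.2e-04), and its dimmer probe set stood at -0.36, not called. Gnaq was lower in SP here, with levels of 7.23 ± 0.38 (SD, n = 5) against 7.94 ± 0.47 (SD, n = 5) and a log2 change of -0.71 ± 0.24 (SE, adjusted p 0.0308).

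Among beta and gamma subunits, Gnb5, the divergent beta subunit that pairs with Rgs7 and its relatives, read 9.62, 9.80, 9.89, 9.40 and 10.08 in SP and 8.57, 9.15, 7.88, 8.07 and 8.13 in MP. The ranges were apart, with a log2 change of 1.40 ± 0.31 (SE, adjusted p 0.00146). Gnb4 rose by 1.19 ± 0.44 (SE, adjusted p 0.045) with overlapping groups, and Gng11 by 1.11 ± 0.26 (SE, adjusted p 0.00255). Gng2 fell with a log2 change of -0.91 ± 0.25 (SE, adjusted p 0.00672). For Gnb1 the 3 probe sets differed: the brightest stood at 0.30 ± 0.19 (SE) and was not called, a second at 0.32 was not called, and the third at -0.70 was called lower with an adjusted p of 0.0298.

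Adcy6 was the only cyclase called in marrow. It read 9.61, 10.73, 10.10, 10.36 and 11.05 in SP and 9.06, 8.05, 8.34, 8.89 and 8.57 in MP, with no overlap, and a log2 change of 1.79 ± 0.26 (SE, adjusted p 1.4e-05). Adcy2 was at the floor on 3 of 5 SP and 2 of 5 MP arrays, and Adcy7 differed little, with a log2 change of 0.10 ± 0.24 (SE). Pde7a, specific for cyclic AMP, read 9.81, 10.15, 11.02, 10.38 and 10.94 in SP and 9.20, 8.74, 9.38, 9.24 and 9.29 in MP. All SP arrays lay above the MP range, with a log2 change of 1.29 ± 0.21 (SE, adjusted p 5.4e-05). Pde8a, also specific for cyclic AMP, went the other way with a log2 change of -0.86 ± 0.17 (SE, adjusted p 5.6e-04), as did the calmodulin-dependent Pde1b with -0.50 ± 0.18 (SE, adjusted p 0.0463) and the chaperone Pde6d, which is no phosphodiesterase, with -1.31 ± 0.30 (SE, adjusted p 0.0017).

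Prkacb, a catalytic subunit of protein kinase A, read 11.66, 12.10, 12.29, 12.31 and 12.06 in marrow SP and 11.02, 11.02, 11.38, 11.18 and 10.92 in MP. The lowest SP array was above the highest MP array, and the log2 change was 0.98 ± 0.17 (SE, adjusted p 1.1e-04). The other catalytic gene, Prkaca, was not called, with a log2 change of -0.30 ± 0.22 (SE); without marrow MP 2 it was -0.52 with an adjusted p of 0.0404. Prkar1a stood at 0.04 ± 0.16 (SE) and Pde4b at -0.03 ± 0.19 (SE), neither called.

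The cell type lists differed between the marrow populations too. From SP to MP the 11 B lineage markers of 12 on the array went from 3082 to 6149 up to 19835 to 32334, and the monocyte and macrophage markers from 25735 to 79088 up to 126841 to 143528, with none at the floor on all arrays. Granulocyte markers summed to 110725 to 267105 in SP and 389460 to 420388 in MP. In the other direction, the 12 T and NK cell markers summed to 48646 to 95043 in SP and 4936 to 8431 in MP, and the 9 blood stem cell markers of 12 on the array to 19494 to 37697 and 4593 to 6719. Erythroid markers, 5 of 8 on the array, summed to 23539 to 54679 in SP and 12773 to 20606 in MP, and endothelial markers to 7637 to 14482 and 4048 to 4429. Of the erythroid markers, Hba-a1 averaged 15.13 in SP and 13.71 in MP, Alas2 11.89 and 11.27 and Slc4a1 10.45 and 9.41. Klf1 differed little, at 8.85 and 8.94, and Epb42 went the other way, at 6.96 and 7.70. Their part in the marrow changes was not tested.

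Single arrays decided several of the smaller marrow calls. Without marrow SP 4, Rgs10 stood at 0.54 with an adjusted p of 0.0512 (4.9e-04 to 0.0787 over its alternatives). Gnb4 was no longer called when any 1 of 8 arrays was left out (marrow SP 2, 3, 4 or 5 or marrow MP 1, 2, 3 or 4; adjusted p 0.054 to 0.12) or under 5 other settings (0.0019 to 0.164 over all its alternatives). Gnaq was no longer called when any 1 of 5 arrays was left out (marrow SP 2 or 5 or marrow MP 2, 3 or 4; adjusted p 0.0758 to 0.0871) or under 7 other settings (0.0092 to 0.725 over all its alternatives). Rgs7 was no longer called when any 1 of 5 arrays was left out (marrow SP 3, 4 or 5 or marrow MP 2 or 4; adjusted p 0.0541 to 0.0934) or under 6 other settings (0.0034 to 0.203 over all its alternatives). Pde1b was no longer called when any 1 of 6 arrays was left out (marrow SP 3, 4 or 5 or marrow MP 1, 3 or 4; adjusted p 0.0602 to 0.123) or under 7 other settings (0.0077 to 0.421 over all its alternatives). With median scaling Gna13 stood at 0.46 with an adjusted p of 0.0813 (5.5e-05 to 0.0813), and without further normalization Gnai2 was at 0.159 (3.9e-06 to 0.159) and Gng2 at 0.294 (0.002 to 0.294). With the floor at the 40th percentile Gng11 was at 0.0538 (4.3e-05 to 0.0538).

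The marrow and muscle comparisons share no arrays, and 4 members were called in both. By their brightest probe sets, Rgs16 and Gna13 were higher in SP in both tissues. These 2 genes make up 40% of the 5 called higher in muscle and 20% of the 10 called higher in marrow. The second Gna13 probe set, not called, stood at -0.22 in muscle and -0.36 in marrow. With median scaling neither Gna13 call was kept. In marrow the second Rgs16 probe set, at 0.48, was not called. With the GAPDH ratio as a covariate the muscle Rgs16 call was lost. No member was lower in both. Over all 7295 genes tested, by the brightest probe set, the genes higher in both were 36.9% of those higher in muscle and 11% of those higher in marrow, and the genes lower in both 28.5% and 14.4%. Adcy6 was lower in muscle SP and higher in marrow SP, and Gnaq was higher in muscle SP and lower in marrow SP. Each makes up 20% of its muscle calls and 10% of its marrow calls. Over all genes the shares were 9.51% and 4.31% for the direction of Adcy6 and 11.1% and 3.69% for that of Gnaq. As given above, the muscle Adcy6 call and both Gnaq calls were lost in some alternatives.

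**Figure D2:**
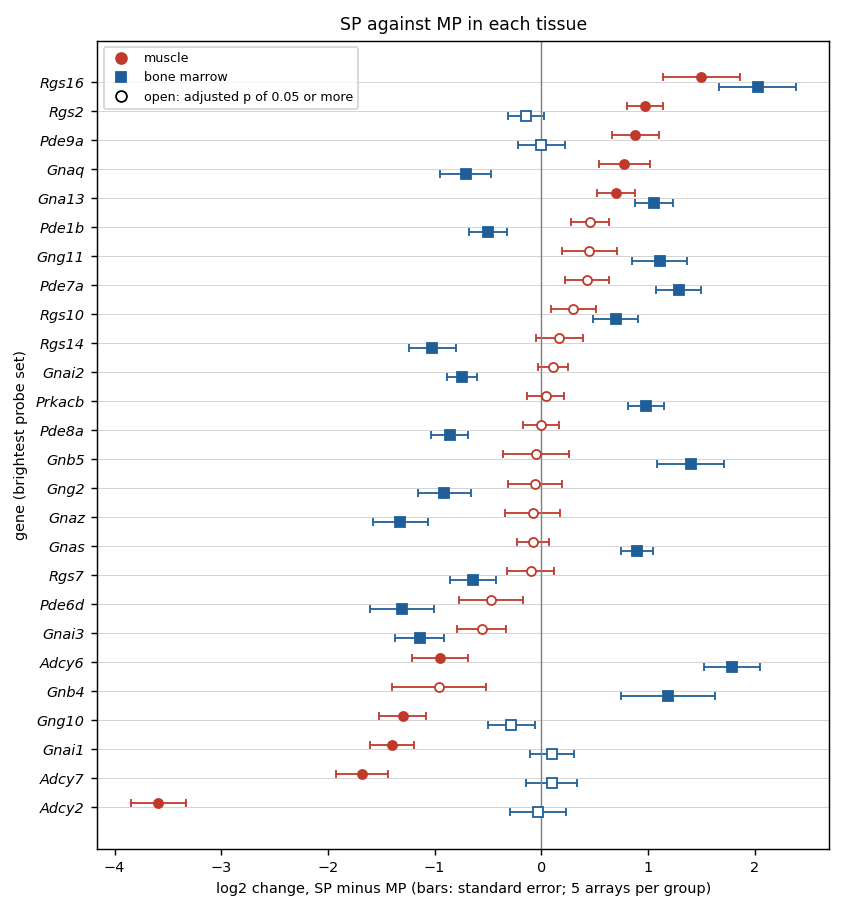
Log2 change of SP against MP with its standard error for the 26 genes called in muscle (circles) or in bone marrow (squares), 5 arrays per group; open symbols did not pass. Rgs16 and Gna13 lie to the right in both tissues, Adcy6 and Gnaq lie on opposite sides of 0, and Adcy2 stands alone at -3.59 in muscle.

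The difference between the tissues was tested directly as an interaction, the SP against MP change in muscle minus that in marrow. Of the 70 probe sets, 9 were called positive and 10 negative, 27.1% beside 18.5% of all probe sets (8.69% positive and 9.85% negative). The share positive, 47.4%, was 35.3% on the deposited values as they stand and 66.7% after median scaling, and there the medians of all probe sets were -0.23 and 0.13. Cyclases gave the 2 most negative values. The interaction was -3.56 ± 0.37 (SE, adjusted p 7.8e-07) for Adcy2, -2.74 ± 0.36 (SE, adjusted p 1.5e-05) for Adcy6 and -1.78 ± 0.34 (SE, adjusted p 6.9e-04) for Adcy7. For Adcy2 and Gnai1 the marrow side was at or near the floor, so the interaction, -1.50 ± 0.29 (SE, adjusted p 9.2e-04) for Gnai1, rests on the muscle change.

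The stimulatory subunit Gnas gave -0.98 ± 0.21 (SE, adjusted p 0.00166), while its other tested probe set stood at 0.29 and was not called; with median scaling the value for Gnas was -0.11. Among the inhibitory subunits, Gnai2 gave 0.85 ± 0.19 (SE, adjusted p 0.0034), opposite in sign to Gnai1, and Gnai3 was not called, at 0.58 ± 0.32 (SE). The least bright Gnai2 probe set, at 0.75, was not called. Gnaq had the largest positive value called, 1.48 ± 0.34 (SE, adjusted p 0.00368), followed by Gnaz at 1.24 ± 0.36 (SE, adjusted p 0.0188). Beta and gamma subunits gave -2.14 ± 0.62 (SE, adjusted p 0.0182) for Gnb4, -1.44 ± 0.44 (SE, adjusted p 0.0242) for Gnb5 and -1.02 ± 0.31 (SE, adjusted p 0.023) for Gng10. Among RGS genes Rgs14 gave 1.18 ± 0.32 (SE, adjusted p 0.0105) and Rgs2 1.11 ± 0.24 (SE, adjusted p 0.0022). Among phosphodiesterases Pde1b gave 0.96 ± 0.26 (SE, adjusted p 0.0121), Pde8a 0.86 ± 0.25 (SE, adjusted p 0.0165) and Pde7a -0.86 ± 0.29 (SE, adjusted p 0.0433), and the kinase subunit Prkacb gave -0.94 ± 0.24 (SE, adjusted p 0.00746). The interaction of Rgs16, which rose in both tissues, was -0.53 ± 0.51 (SE) and was not called.

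The Pde7a interaction was no longer called when any 1 of 16 arrays was left out (muscle SP 1, 2, 4 or 5, muscle MP 1, 2, 3, 4 or 5, marrow SP 3, 4 or 5 or marrow MP 1, 2, 4 or 5; adjusted p 0.0509 to 0.0853) or under 4 other settings (0.0094 to 0.131 over all its alternatives). Without muscle MP 2 the adjusted p of the Gnb5 interaction was 0.0505 (0.0024 to 0.0505 over its alternatives). Without the 3 arrays of highest GAPDH ratio 13 member probe sets were called, 11 of them among the 19, and Gnb4, Gng10, Rgs14, Gnaz and Pde1b were among those lost. Scaling decided other calls: the Gnas interaction had an adjusted p of up to 0.8, Pde8a of up to 0.265 and Prkacb of up to 0.135 among the alternatives without further normalization or with median scaling. Over all alternatives the adjusted p reached 0.265 for Gnaq, 0.262 for Gnaz and 0.388 for Gng10. With the floor at the 40th percentile the Adcy2 interaction was -2.86 and that of Gnb4 -1.28, both still called.

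Between the tissues, muscle SP cells differed from marrow SP cells at more members. Higher in muscle SP were the cyclase Adcy4 by 18.8-fold, the gamma subunit Gng11, Rgs16, the alpha subunits Gna11 and Gnai1 and the phosphodiesterases Pde9a and Pde8a. Higher in marrow SP were Rgs19, Adcy7, Gng10, Pde7a and the blood-cell alpha subunit Gna15. Of 70 probe sets, 24 were higher in muscle and 11 lower, 50% in all, beside 38.3% of all probe sets (17.1% higher and 21.2% lower), and the median change was 0.18 against -0.11 for all. The comparison uses the SP arrays described above, so it is not independent of the earlier ones.

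Adcy4, a cyclase stimulated by G beta-gamma, read 11.77, 11.97, 12.14, 11.95 and 11.60 in muscle SP and 6.71, 8.90, 7.79, 8.17 and 6.71 in marrow SP. Marrow arrays 1 and 5 were at the floor and none came near the muscle range; the log2 change was 4.23 ± 0.39 (SE, adjusted p 7.1e-09). Gng11 read 12.34, 11.79, 11.39, 11.73 and 11.72 in muscle and 8.45, 9.07, 8.62, 7.52 and 8.43 in marrow, a log2 change of 3.38 ± 0.26 (SE, adjusted p 4.5e-10). Gna11, the close relative of Gnaq, read 9.46, 10.16, 10.53, 9.17 and 9.88 in muscle SP and was at the floor on all 10 marrow arrays. It was higher in muscle SP by at least 3.13 ± 0.23 (SE, adjusted p 2.1e-10). Gnai1 was also called higher, at 2.61 ± 0.21 (SE, adjusted p 6.0e-10), and Gna12, a relative of Gna13, at 1.34 ± 0.25 (SE, adjusted p 1.3e-04). Smaller rises were called in Gnai2 (0.63), Gnas (0.55), Gnaq (0.71) and Gnao1 (0.99). Of the 19 alpha subunit probe sets 11 were higher and 3 lower, beside 17.1% and 21.2% of all probe sets. Gna11, Gnai2 and Gnas enter the 11 with more than 1 probe set each. The Gnao1 probe sets differed in call, with 0.86 and 0.07 for the dimmer ones.

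Rgs16 was higher in muscle SP by 3.31 ± 0.36 (SE, adjusted p 1.0e-07), and both of its probe sets were called; without the 3 arrays of highest GAPDH ratio its change was 3.95. Rgs19 was lower, with levels of 9.97 ± 0.99 (SD, n = 5) in muscle SP and 13.11 ± 0.62 (SD, n = 5) in marrow SP and a log2 change of -3.14 ± 0.45 (SE, adjusted p 4.8e-06); its least bright probe set, at -0.27, was not called. Rgs14 gave -1.39 ± 0.22 (SE, adjusted p 2.6e-05) and Rgs2 -0.87 ± 0.17 (SE, adjusted p 2.6e-04). Pde9a was at the floor on all marrow arrays and higher in muscle SP by at least 2.84 ± 0.22 (SE, adjusted p 3.7e-10). Pde8a gave 1.95 ± 0.17 (SE, adjusted p 4.4e-09), the chaperone Pde6d 1.90 ± 0.30 (SE, adjusted p 1.8e-05) and Pde1a 1.51 ± 0.31 (SE, adjusted p 3.7e-04), whereas Pde7a gave -1.67 ± 0.21 (SE, adjusted p 7.4e-07) and Pde1b -1.02 ± 0.18 (SE, adjusted p 1.1e-04).

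Adcy7 was the only cyclase lower in muscle SP, with a log2 change of -1.95 ± 0.24 (SE, adjusted p 6.1e-07), and Adcy6 was higher with 1.49 ± 0.26 (SE, adjusted p 6.2e-05). Gng10 gave -1.94 ± 0.22 (SE, adjusted p 1.7e-07), Gng12 1.25 ± 0.17 (SE, adjusted p 3.6e-06) and Gnb1 1.12 ± 0.19 (SE, adjusted p 6.0e-05). Dimmer Gnb1 probe sets stood at 1.48 and 0.19, and the latter was not called. Gna15, the Gq-class subunit of blood cells, averaged 8.33 ± 0.42 (SD, n = 5) in marrow SP, where the lowest array read 8.01, and was at the floor on 4 of 5 muscle SP arrays, with a log2 change of -1.53 ± 0.19 (SE, adjusted p 7.7e-07). Gna13 gave -0.85 ± 0.18 (SE, adjusted p 7.0e-04). None of the 6 protein kinase A probe sets was called by limma in this comparison. Prkaca stood at 0.19 ± 0.22 (SE), Prkar1a at 0.09 ± 0.16 (SE) and Pde4b at -0.05 ± 0.19 (SE). Gnaq was no longer called when any 1 of 4 arrays was left out (muscle SP 1 or 4 or marrow SP 2 or 5; adjusted p 0.053 to 0.0704) or under 5 other settings (0.015 to 0.477 over all its alternatives). Median scaling took Rgs2 to an adjusted p of 0.0838 (7.5e-05 to 0.0838 over its alternatives), and a floor at the 40th percentile took Pde1a to 0.0596 (5.7e-05 to 0.0596) and Gna15 to 0.107 (3.2e-07 to 0.107). Values of genes near the floor moved with it: the bound for Gna11 was 4.10 with the floor at the 10th percentile and 1.85 at the 40th, that for Pde9a 4.56 and 1.56, and the Gnai1 change 3.24 and 1.43.

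The main populations of the tissues differed as well. Muscle MP cells had higher cyclases Adcy6, Adcy2 and Adcy4, the alpha subunits Gnai1 and Gna11, Gng11, Rgs16 and Gnb4, and marrow MP cells had higher Rgs19, Rgs14, Rgs2 and Pde1b. Of 70 probe sets, 23 were higher in muscle and 14 lower, 52.9% beside 46.5% of all probe sets (20.9% higher and 25.6% lower). Of the 7 cyclase probe sets 4 were higher in muscle and 0 lower.

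Adcy6 read 12.73, 12.89, 12.74, 12.44 and 13.27 in muscle MP and 9.06, 8.05, 8.34, 8.89 and 8.57 in marrow MP, 18.8-fold apart with a log2 change of 4.23 ± 0.26 (SE, adjusted p 4.0e-12). Adcy2 was near or at the floor in marrow MP and gave 4.07 ± 0.26 (SE, adjusted p 1.1e-11), and Adcy4 gave 3.32 ± 0.39 (SE, adjusted p 2.2e-07). Adcy7 did not pass, with -0.17 ± 0.24 (SE). Gnai1 was at the floor on all marrow MP arrays and higher in muscle by at least 4.11 ± 0.21 (SE, adjusted p 1.5e-13), and Gna11 likewise by at least 3.22 ± 0.23 (SE, adjusted p 7.6e-11). Gng11 gave 4.03 ± 0.26 (SE, adjusted p 1.4e-11), Gnb4 2.85 ± 0.44 (SE, adjusted p 1.1e-05), Gnb5 1.83 ± 0.31 (SE, adjusted p 3.8e-05) and Gnb1 1.18 ± 0.19 (SE, adjusted p 2.2e-05). Dimmer Gnb1 probe sets stood at 0.70 and -0.29, neither called. Gnas gave 1.54 ± 0.15 (SE, adjusted p 7.5e-09) (0.82 with median scaling), while its other tested probe set, at 0.63, was not called, and Gnai2 was not called, at -0.22 ± 0.14 (SE), except with median scaling (-0.56, adjusted p 0.0274) or no filter (adjusted p 0.0401).

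Rgs16 was higher in muscle MP by 3.84 ± 0.36 (SE, adjusted p 6.4e-09). On the marrow side, Rgs2 read 14.45, 14.49, 14.16, 14.58 and 14.51 in marrow MP against 12.39, 12.45, 12.41, 12.49 and 12.57 in muscle MP. The lowest marrow array stood above every muscle array, with a log2 change of -1.98 ± 0.17 (SE, adjusted p 1.5e-09). Rgs14 gave -2.57 ± 0.22 (SE, adjusted p 1.7e-09) and Rgs19 -3.78 ± 0.45 (SE, adjusted p 2.2e-07). The least bright Rgs19 probe set stood at 0.11 and was not called. Pde1b, which calcium and calmodulin activate, read 10.70, 10.25, 10.61, 10.68 and 10.22 in marrow MP and 8.49, 8.56, 8.48, 8.31 and 8.74 in muscle MP, a log2 change of -1.98 ± 0.18 (SE, adjusted p 6.0e-09). Pde7a gave -0.81 ± 0.21 (SE, adjusted p 0.00275), and Pde9a, at the floor on all marrow arrays, was higher in muscle by at least 1.96 ± 0.22 (SE, adjusted p 9.6e-08).

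The remaining falls in muscle MP were in alpha and gamma subunits. Gna15 gave -1.38 ± 0.19 (SE, adjusted p 2.3e-06), Gnaz -1.11 ± 0.26 (SE, adjusted p 0.001), Gnai3 -0.78 ± 0.23 (SE, adjusted p 0.00695) and Gnaq -0.77 ± 0.24 (SE, adjusted p 0.0115). Gng2 gave -1.06 ± 0.25 (SE, adjusted p 0.00102) and Gng10 -0.92 ± 0.22 (SE, adjusted p 0.00139). Gna13 gave -0.49 ± 0.18 (SE, adjusted p 0.0314). Prkacb was the 1 kinase subunit called, higher in muscle by 0.90 ± 0.17 (SE, adjusted p 1.2e-04). Prkaca stood at -0.19 ± 0.22 (SE) and Pde4b at 0.21 ± 0.19 (SE). Prkar1a stood at 0.33 ± 0.16 (SE) and passed in 4 alternatives, with adjusted p from 0.0282 to 0.0493. Gna13 was no longer called when any 1 of 7 arrays was left out (muscle MP 2, 3, 4 or 5 or marrow MP 3, 4 or 5; adjusted p 0.0582 to 0.088) or under 1 other settings (0.0045 to 0.088 over all its alternatives). A floor at the 40th percentile took Gna15 to an adjusted p of 0.449 (3.8e-08 to 0.449 over its alternatives) and Gnaq to one of up to 0.272 (0.002 to 0.272 over its alternatives). With that floor Adcy2 stood at 2.96, Gnb4 at 1.90 and Gng11 at 3.35, and the bounds were 2.83 for Gnai1, 1.93 for Gna11 and 0.68 for Pde9a. With the floor at the 10th percentile those bounds were 5.26, 4.40 and 3.69, and Gna15 stood at -2.19.

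**Figure D3:**
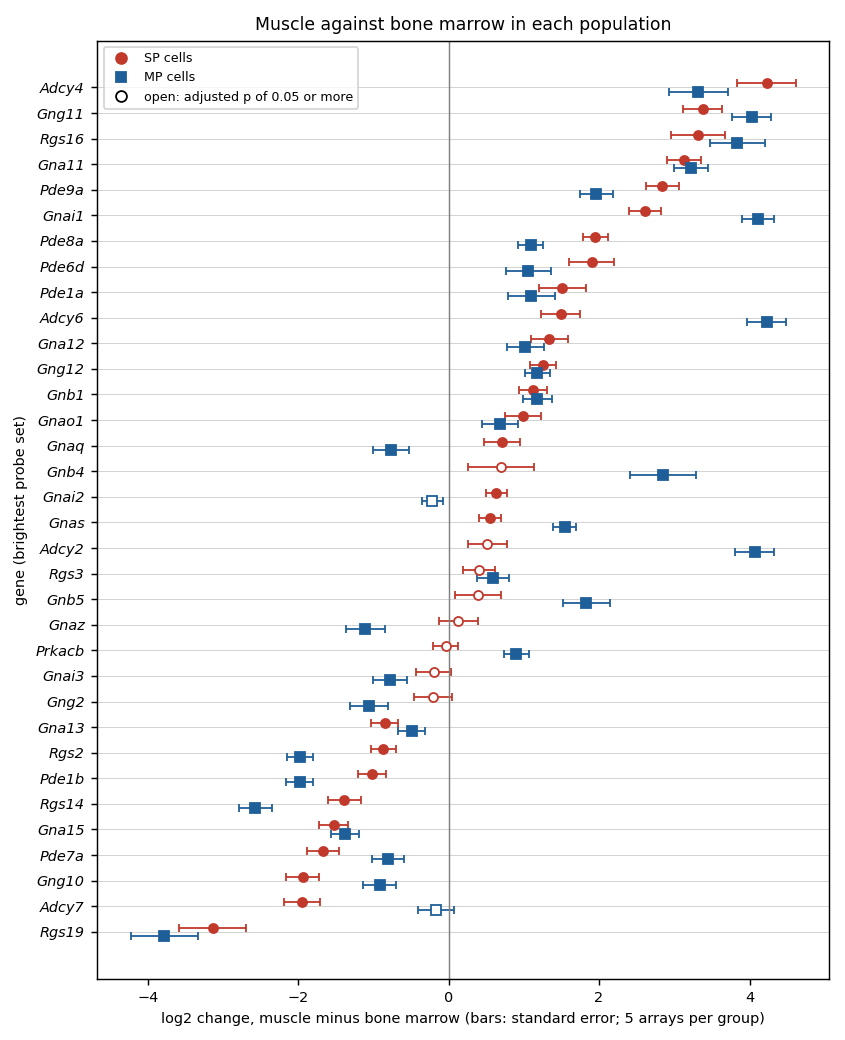
Log2 change of muscle against bone marrow with its standard error for the 34 genes called in SP (circles) or MP cells (squares), 5 arrays per group; open symbols did not pass. Most genes lie on the same side of 0 in both populations, and Gnaq lies on opposite sides.

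The SP and MP tissue comparisons share no arrays. The 15 genes higher in muscle in both make up 88.2% of the 17 called in SP and 75% of the 20 called in MP. The 8 lower in both, Gna13, Gna15, Gng10, Pde1b, Pde7a, Rgs2, Rgs14 and Rgs19, make up 88.9% of 9 and 66.7% of 12. Over all 7295 genes the corresponding shares were 76.6% and 61.4% for higher and 61.3% and 54% for lower. Gnaq was the 1 member called in opposite directions, higher in muscle in SP and lower in MP. It makes up 5.88% of the 17 and 8.33% of the 12, and over all genes these shares were 2.98% and 2.21%. Neither Gnaq call was kept in every alternative. Marker lists moved with the tissue as well. Beside the endothelial and granulocyte sums given above, the 9 pericyte and smooth muscle markers of 10 on the array summed to 29377 to 79535 on muscle arrays and 1683 to 4158 on marrow arrays, with Pdgfrb at the floor on all marrow arrays. The 10 fibroblast markers summed to 71824 to 285459 and 2337 to 6053. Their part in the tissue differences was not tested.

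Other genes of the pathway were counted by lists, each gene by its brightest tested probe set. The shares of all probe sets to read them against were 5.1% higher and 6.64% lower in muscle SP against MP, 15.4% and 14.8% in marrow SP against MP, 17.1% and 21.2% in muscle SP against marrow SP, and 20.9% and 25.6% in muscle MP against marrow MP. Of 19 tested CREB target genes, which the cyclic AMP response factor is known to switch on, 5 were higher and 1 lower in muscle SP than in MP (5.1% and 6.64% of all probe sets), and 8 higher and 3 lower in marrow SP than in MP (15.4% and 14.8%). In muscle the orphan receptor Nr4a2 gave 1.54 ± 0.30 (SE, adjusted p 0.00124), the repressor Nfil3 1.43 ± 0.25 (SE, adjusted p 4.6e-04) and Junb 1.38 ± 0.30 (SE, adjusted p 0.00354), while Ptgs2, the inducible prostaglandin synthase, gave -1.29 ± 0.40 (SE, adjusted p 0.0405). In marrow Nr4a2 gave 3.14 ± 0.30 (SE, adjusted p 5.7e-08), Nr4a1 2.16 ± 0.21 (SE, adjusted p 9.7e-08), Crem 1.62 ± 0.28 (SE, adjusted p 1.1e-04) and Egr1 1.46 ± 0.37 (SE, adjusted p 0.0043). Muscle SP exceeded marrow SP at 11 of the 19 and was lower at 0, with a median change of 1.03 beside -0.11 for all probe sets, and muscle MP exceeded marrow MP at 11 and was lower at 2, with a median of 1.87 beside -0.14. Fosb, for instance, gave 2.49 ± 0.33 (SE, adjusted p 1.6e-06) in SP and 3.31 ± 0.33 (SE, adjusted p 1.4e-08) in MP, and Id1 gave 3.78 ± 0.33 (SE, adjusted p 2.6e-09) in SP. Many of these genes also answer signals other than cyclic AMP.

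Of 18 tested Gs-coupled receptors, 0 were higher and 1 lower in muscle SP than in MP, a share near that of all probe sets (6.64% lower). The 1 was Calcr, the calcitonin receptor and itself a satellite cell marker, with a mean of 7.04 in muscle SP and 10.63 in muscle MP and a change of -3.59 ± 0.18 (SE, adjusted p 9.7e-12); it was at the floor on all marrow arrays. In marrow the prostaglandin receptors went opposite ways, Ptger2 with -2.12 ± 0.21 (SE, adjusted p 7.9e-08) and Ptger4 with 1.11 ± 0.28 (SE, adjusted p 0.00402), and the histamine receptor Hrh2 gave -0.85 ± 0.27 (SE, adjusted p 0.018). Vipr1 gave -1.20 ± 0.30 (SE, adjusted p 0.00359). That left 1 receptor of 18 higher and 3 lower in marrow SP, beside 15.4% and 14.8% of all probe sets. Ptger2 was lower in muscle MP than in marrow MP, with -4.58 ± 0.21 (SE, adjusted p 2.4e-14).

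Of 22 tested Gi-coupled receptors, 0 were higher and 2 lower in muscle SP than in MP, again near the 6.64% lower of all probe sets, namely the lysophosphatidic acid receptor Lpar1 with -2.10 ± 0.28 (SE, adjusted p 2.0e-05) and the complement receptor C3ar1 with -1.15 ± 0.23 (SE, adjusted p 0.00146). In marrow 0 were higher and 5 lower in SP, beside 15.4% and 14.8% of all probe sets. These were led by the chemokine receptors Ccr1 with -3.17 ± 0.39 (SE, adjusted p 2.2e-06), Cxcr2 with -1.87 ± 0.22 (SE, adjusted p 1.0e-06) and Cxcr4 with -1.30 ± 0.29 (SE, adjusted p 0.00168), and by the formyl peptide receptor Fpr2 with -2.66 ± 0.34 (SE, adjusted p 2.7e-06). Several of these receptors mark granulocytes and monocytes, whose marker sums were lower in marrow SP as given above. Not every marker of those lists was lower: Prtn3 averaged 11.45 in marrow SP and 11.43 in marrow MP, and Fcgr3 8.30 and 8.36. The part of these cell types in the receptor changes was not tested. In both populations 2 receptors were higher in muscle than in marrow and 8 lower. Over all probe sets the shares were 17.1% and 21.2% in SP and 20.9% and 25.6% in MP. Fpr2 gave -7.40 ± 0.34 (SE, adjusted p 2.6e-14) in MP cells. Lpar1, at the floor on all marrow MP arrays, was higher in muscle MP by at least 4.79 ± 0.28 (SE, adjusted p 1.6e-12).

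Among 11 tested anchors and inhibitors of protein kinase A, 3 were higher and 0 lower in muscle SP than in MP, beside 5.1% and 6.64% of all probe sets: the anchors Akap9 with 1.54 ± 0.47 (SE, adjusted p 0.0361), Ezr with 0.75 ± 0.20 (SE, adjusted p 0.0161) and Akap2 with 0.60 ± 0.18 (SE, adjusted p 0.033). In marrow SP the anchor Akap12 gave -2.11 ± 0.22 (SE, adjusted p 1.8e-07) and the kinase inhibitors Pkib and Pkig gave -1.96 ± 0.29 (SE, adjusted p 1.9e-05) and -0.91 ± 0.17 (SE, adjusted p 3.0e-04), while the inhibitor Pkia gave 1.15 ± 0.38 (SE, adjusted p 0.0236). Pkia was also higher in muscle than in marrow, with 2.53 ± 0.38 (SE, adjusted p 9.0e-06) in SP and 4.60 ± 0.38 (SE, adjusted p 6.6e-10) in MP, and near the floor in marrow MP. Akap12 gave 3.44 ± 0.22 (SE, adjusted p 1.3e-11) in SP.

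Of 12 tested cyclic AMP effectors and CREB factors, 1 was higher and 1 lower in muscle SP, near the shares of all probe sets (5.1% and 6.64%). Creb1 gave 0.70 ± 0.20 (SE, adjusted p 0.0259), and the cyclic AMP-binding membrane protein Popdc3 was at the floor on all muscle SP arrays and higher in MP by at least 2.29 on the log2 scale (SE 0.17, adjusted p 4.2e-09). In marrow SP 2 were higher and 0 lower, beside 15.4% and 14.8% of all probe sets. They were Crem and the coactivator Crebbp, the latter with 0.95 ± 0.30 (SE, adjusted p 0.0187). Among 13 receptor kinases, arrestins and G protein partners, 2 were higher in muscle SP and 0 lower, beside 5.1% and 6.64% of all probe sets. The arrestin Arrb1 gave 1.39 ± 0.22 (SE, adjusted p 2.0e-04) and Gpsm3, which binds inhibitory alpha subunits, 1.44 ± 0.31 (SE, adjusted p 0.00372). In marrow 1 was higher and 2 lower, beside 15.4% and 14.8% of all probe sets. The changes were -1.35 ± 0.28 (SE, adjusted p 6.8e-04) for the receptor kinase Grk5, -0.84 ± 0.31 (SE, adjusted p 0.0476) for Gpsm3 and 0.60 ± 0.22 (SE, adjusted p 0.045) for Axin1. Muscle MP was lower than marrow MP at 6 of the 13 and higher at 2, beside 25.6% lower and 20.9% higher of all probe sets, with -4.36 ± 0.31 (SE, adjusted p 7.3e-11) for Gpsm3 and -1.91 ± 0.20 (SE, adjusted p 5.3e-08) for Grk6.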

How the data were processed

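Total RNA of 4 groups of 5 sorted mouse cell samples was measured on 20 Affymetrix arrays. Signal intensity on a linear scale was deposited, 1 value per probe set and array, and the authors had scaled it to a 2%-trimmed mean of 1501 on every array, as read from the values. How probes were summarised and background corrected, and with which software, is not given in the sources used here. Of 12488 probe sets 66 controls were left out. Arrays, whose medians differed by 0.943 on the log2 scale, were quantile normalized, which removes overall differences in RNA amount. Values under the 25th percentile (104.8) were set to it, log2 was taken, and the 10310 probe sets that exceeded the floor on 5 or more arrays were kept. The floor shrinks changes of dim genes. All groups were fitted together with limma 3.58.1 (R 4.3.3), two-sided, with Benjamini-Hochberg adjustment over all probe sets tested and a threshold of 0.05; the code was tested on simulated data.

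The members and lists were chosen with earlier results of these data known. Named were, in each comparison, up to 12 called rises and 12 called falls by each gene's brightest tested probe set, Gnas, Gnai2, Gnaq, Gnb1, Prkaca, Prkar1a, Rgs2, Adcy7 and Pde4b whatever their values, and up to 4 called genes per pathway list; Gnao1, Rgs3, Adcy3, Gna14 and other probe sets of a gene were added after their values were seen. The pathway lists overlap with each other at Crem and Sik1 and with the members at Adcyap1r1. All 92 member probe sets matched RefSeq by gene identifier with the same symbol. An s, f, g or r suffix was carried by 11 tested member probe sets. Of these letters s and f mark possible cross-hybridisation, which applies to the probe sets used for Gnas, Gnai2, Rgs10 and Pde1a. The probe set used for Rgs19 carries an r suffix. Alternatives were the normalization, floor, filter, variance model, array weights, samples in the fit, replicate block, single arrays left out and the GAPDH ratio. The figures used matplotlib 3.10.9 (Python 3.11.15).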

Additional observations from a re-analysis of the deposited data

Results flagged for a closer look

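On 13 of 148 groups of 5 arrays, 1 array stood apart from the other 4 by Dixon's criterion. Chance meets it in about 1 group in 20 where values are normally spread. That rate does not hold for values set to the floor. The 148 include groups with all 5 arrays at the floor, in which no array can stand apart. The high arrays were muscle MP 1 for Gna13 (11.96 on the log2 scale against a group median of 11.57), marrow SP 4 for Gnas (15.65 against 15.20), marrow MP 5 for Gnb4 (8.06 against 6.73), marrow MP 1 for Gng12 (12.66 against 12.17) and muscle MP 5 for Pde1a (8.66 against 8.08). In 4 further groups the other arrays were all at the floor, so any value above it meets the criterion. There marrow SP 2 stood at 7.22 for Gnai1 and 7.25 for Rgs7, muscle SP 4 at 7.16 for Gna15 and muscle MP 3 at 6.76 for Gna15. The low arrays were marrow MP 2 for Prkaca (8.71 against 9.69) and for Pde7a (8.74 against 9.24), muscle SP 3 for Pde4b (8.18 against 8.84) and muscle SP 1 for Gnb4 (7.12 against 9.44).

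The SP against MP change differed between muscle and marrow, by the interaction test, for 17 of 54 member genes by their brightest probe set. By probe set, 27.1% of the members were called, beside 18.5% of all probe sets tested. Several of these calls were lost under alternatives, as given with the interaction results. It was more negative in muscle for Adcy2 (-3.56), Adcy6 (-2.74), Gnb4 (-2.14), Adcy7 (-1.78), Gnai1 (-1.50), Gnb5 (-1.44), Gng10 (-1.02), Gnas (-0.98), Prkacb (-0.94) and Pde7a (-0.86). It was more positive for Gnaq (1.48), Gnaz (1.24), Rgs14 (1.18), Rgs2 (1.11), Pde1b (0.96), Pde8a (0.86) and Gnai2 (0.85).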

How the results depend on the processing

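Counts of member probe sets called stayed within 1.5 times the value reported in all alternatives run. Leaving out 1 array gave 10 to 12 calls for muscle SP against MP, 18 to 24 for marrow SP against MP, 33 to 36 for muscle SP against marrow SP, 33 to 38 for muscle MP against marrow MP and 17 to 20 for the difference between tissues, and the other alternatives gave 8 to 13, 18 to 27, 32 to 36, 32 to 40 and 13 to 20. With the replicate number as a block the counts were 13, 25, 35, 38 and 20. The labels do not say that a number marks a shared animal or day, and not every same-numbered pair of arrays correlated over 0.1 in its deviations, so the numbers were not taken to pair the samples: 14 of 30 pairs did (-0.141 to 0.296), among them all 6 of replicate 1, the median was 0.082 beside -0.023 for arrays of other numbers, and 8 of 20 arrays correlated best with their own number. Of 96 called changes of named members, 64 kept their call in every alternative in which they were tested, and none changed direction; 14 of the 96 were not tested in 1 or both of the stricter settings (filter at the median, floor at the 40th percentile). Of 24 uncalled values, 4 were called under some alternative. The scaling moved the split of higher and lower calls in marrow SP against MP and in the interaction, as given with those results. Probe sets near the floor give bounds or shrunken changes.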

Other observations

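Probe sets of 1 gene did not always give the same call. For the 12 member genes with more than 1 tested probe set, the calls were the same in 37 of 60 pairs of gene and comparison and differed in 23, with 0 in which 1 probe set was called higher and another lower. Gnb1, Gnas, Rgs19 and Gna13, given with their values in the report, are among those that differed. Adcy9 is another: its dimmer or brighter probe set decides the call, with 1.31 and -0.02 for muscle SP against marrow SP and 0.87 and 0.13 for muscle MP against marrow MP, of which 1.31 and 0.87 were called. Gng12, a gamma subunit, read 1.25 and -0.08 in the former comparison and 1.18 and 0.08 in the latter, with the larger value called each time.

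Among members left out of the tests for low signal, Gna14, a Gq-class alpha subunit, stood above the floor on 2 of 5 muscle SP arrays (highest 9.52) and 2 of 5 muscle MP arrays (highest 7.78), and was at the floor on all marrow arrays.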
